A study of Mus musculus with 2 samples.

Results

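A set of 10 genes for secreted, carrier and surface proteins of the choroid plexus epithelium was compared between brains of Il18-/- and Il18+/+ mice. They were Ttr, Enpp2, Igf2, Igfbp2, F5, Kl, Sostdc1, Wfdc2, Folr1 and 1500015O10Rik, which is also called Ecrg4. The 10 were grouped because earlier results on the same arrays had shown choroid plexus genes to be lower in Il18-/-, so their values describe the arrays and are no independent evidence. All 10 were found by the accession of their probes, out of 15737 named genes that both arrays measured. Il18-/- mice lack interleukin-18, an inflammatory cytokine, and how the allele was made is not given in the sources used here. Both groups were male, of the C57BL/6 N background strain and 12 weeks of age, and no treatment is named for either. The tissue is labelled hippocampus, but prefrontal cortex is what the extraction protocol names, and the design text names both. Each genotype is a single pool of RNA from 7 mice on a single one-colour array. With 2 arrays in all there are no replicates, no difference was tested, and precision is limited by that number.

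The choroid plexus is a sheet of epithelial cells in the brain ventricles that secretes cerebrospinal fluid. Its cells make carriers and growth factors that leave with the fluid, among them transthyretin, which carries thyroid hormone, and insulin-like growth factor II. Receptors and enzymes on the same cells move vitamins from blood to fluid or modify lipids and hormones there. A plexus lies beside the hippocampus in the lateral ventricle.

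Probes well above background made up 65.4% of the Il18-/- array and 67.2% of that of Il18+/+. Levels are log2 intensities minus that of each array's 75th percentile, which lay at intensities of 709.9 (Il18-/-) and 694.8 (Il18+/+). Differences are Il18-/- minus Il18+/+ on that log2 scale. The arrays shared their slide and their scan. The probe for Il18 itself read -0.12 in Il18-/- and 1.37 in Il18+/+, and whether it lies in the deleted part is not known here. Of all measured genes, 47.4% were lower in Il18-/- at any size, 2.57% by 1.5-fold or more and 0.451% by 2-fold or more, and 1.68% were at least 1.5-fold higher. The split at 1.5-fold, 264 higher and 405 lower, was 339 and 271 with loess normalization, 320 and 317 when arrays were centred on their medians, and 113 and 107 with normexp background correction. Scaling to spike-in controls lowered every difference by 0.30 and gave 128 and 1727, so any difference between 0 and that size turns negative under it.

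All 10 genes were lower in Il18-/-, with a median difference of -1.06, or 2.09-fold, and a range from -1.55 to -0.96. The median over all measured genes was 0.01. All 10 were at least 1.5-fold lower, beside the 2.57% of all genes given above, and 9 were at least 2-fold lower, beside 0.451%. The genes were chosen for this contrast, so nothing is read from those counts. Sostdc1, at -1.01, stood just past 2-fold and Ttr, at -0.96, just short of it. The genes were read by 15 probes, 5 genes by 1 probe and 5 genes by 2. Every one of the 15 probes was lower in Il18-/-, with signals the scanner software rates as well above background in both pools and none saturated. Their differences ran from -1.80 to -0.94. Fewer choroid plexus cells in a piece of tissue and less RNA per cell cannot be told apart in such samples.

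**Figure D1:**
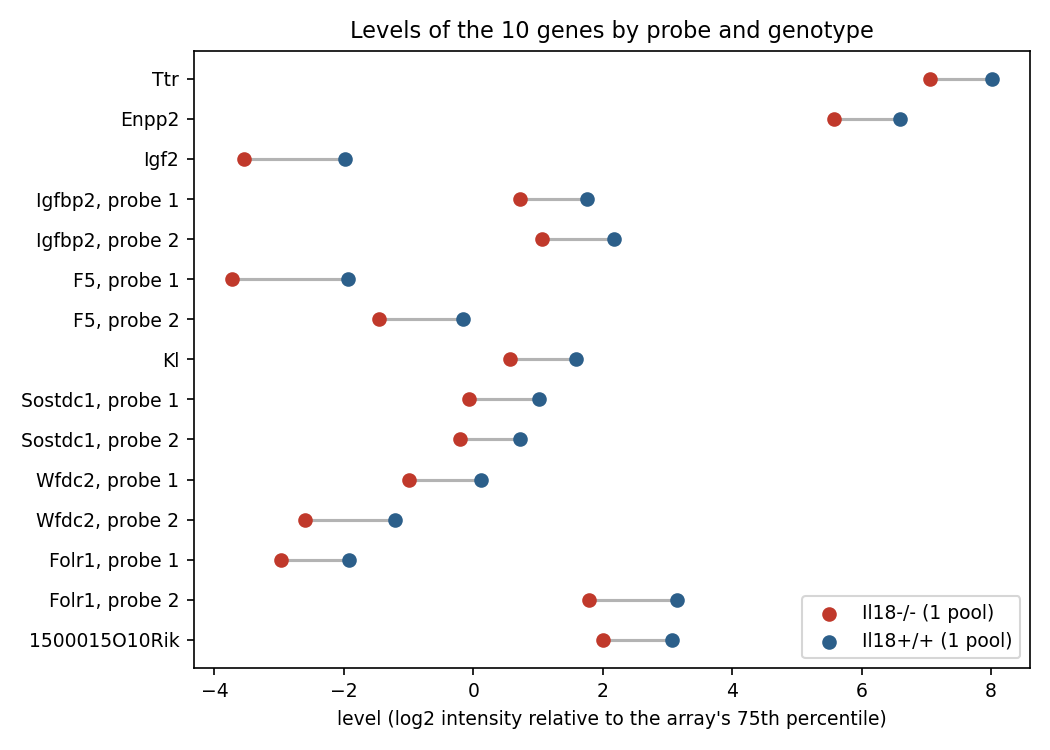
Level of each of the 15 probes of the 10 genes in the Il18-/- pool (red) and the Il18+/+ pool (blue), as log2 intensity relative to the 75th percentile of the array. The red point lies left of the blue point in every row. Positions along the axis differ between probes for reasons of probe design as well as RNA amount, so rows are not to be compared with each other by level.

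Transthyretin carries thyroxine in cerebrospinal fluid and, bound to retinol-binding protein, vitamin A. Its gene Ttr had an intensity of 94211 in Il18-/- and 178976 in Il18+/+, which are levels of 7.05 and 8.01. The Il18-/- pool thus read 51.5% of the Il18+/+ pool, a difference of -0.96, the smallest of the 10. Feature Extraction, the scanner software, gives an error for each spot, and for Ttr this came to 0.20 for the difference. Other probes at that level that are spotted several times had a median standard deviation of 0.05 between spots in the difference, and both figures cover the measurement only and not the animals.

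Folate receptor alpha, the product of Folr1, takes folate through the choroid plexus epithelium into the fluid. Folr1 was read by 2 probes. Probe A_55_P1977792 had an intensity of 2459 in Il18-/- and 6178 in Il18+/+, a difference of -1.36. Probe A_52_P584335 had 90.6 in Il18-/- and 183.5 in Il18+/+, a difference of -1.05. Both probes were lower in Il18-/- and they lay 0.31 apart, and the mean was -1.20 or 2.30-fold. At least 2 of the 18 spots nearest to that of probe A_52_P584335 were 2-fold lower too, while the median over the 18 was 0.04. The part of these spots in the value of that probe was not tested.

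Igf2 encodes insulin-like growth factor II, an imprinted growth factor of embryo and brain, and Igfbp2 encodes a protein that binds it and insulin-like growth factor I. Igf2 had an intensity of 61.0 in Il18-/- and 175.3 in Il18+/+. Those are levels of -3.54 and -1.99 and a difference of -1.55, or 2.94-fold, the largest of the 10. This was a dim probe, whose median signal was 2.27 times its local background in Il18-/- and 4.88 times in Il18+/+. Repeatedly spotted probes at this level differed between spots by a median standard deviation of 0.20, against 0.05 among the brightest such probes, so its size is less certain than that of Ttr. At least 2 of the 18 nearest spots were 2-fold lower too, while the median over the 18 was 0.15. With normexp background correction the difference was -0.96 and the fold 1.51 times smaller. That setting adds an offset of 50 to every signal, which by itself makes the folds of dim probes smaller. Igfbp2 was read by 2 probes. Probe A_55_P2056729 had an intensity of 1175 in Il18-/- and 2358 in Il18+/+, and probe A_66_P135391 had 1489 in Il18-/- and 3123 in Il18+/+. These gave differences of -1.04 and -1.10, the closest pair of the 5, and a mean of -1.07.

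Enpp2 encodes autotaxin, a secreted enzyme that makes lysophosphatidic acid, a signalling lipid. Its intensity was 33775 in Il18-/- and 67105 in Il18+/+, a difference of -1.02, so the Il18-/- pool read 49.3% of the Il18+/+ pool. Oligodendrocytes also transcribe Enpp2. Of 12 oligodendrocyte markers, a list added after the values were seen, all were measured and none reached 1.5-fold in either direction. Of the 12, 11 were lower in Il18-/- at any size, beside 47.4% of all genes, and Opalin alone was higher. Over the 12 the median difference was -0.20 and the range -0.50 to 0.49. Their summed linear level, in multiples of the 75th percentile intensity of the array, was 244 in Il18-/- and 309.8 in Il18+/+, and its part in the value of Enpp2 was not tested. Kl encodes klotho, a co-receptor for fibroblast growth factor 23 that is also shed into the fluid. Its intensity was 1053 in Il18-/- and 2084 in Il18+/+, a difference of -1.02 or 2.02-fold. These genes thus differed between the pools by nearly the same factor.

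F5 encodes coagulation factor V, the cofactor with which activated factor X cleaves prothrombin, and the liver is its main source in the body. Probe A_55_P2076545 had an intensity of 258.6 in Il18-/- and 622.8 in Il18+/+, a difference of -1.30. Probe A_51_P407323 had 53.5 in Il18-/- and 182.1 in Il18+/+, a difference of -1.80. Both probes were lower in Il18-/-, but they lay 0.50 apart, the widest pair of the 5. Of these, probe A_51_P407323 was dim, with a median signal 2.28 times its local background in Il18-/-. The mean was -1.55, or 2.93-fold, and the gene stood at -1.04 with normexp background correction. Over the 3422 measured genes with 2 probes the median distance between the probes was 0.16, and 90% of such genes lay within 0.52.

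Sostdc1 encodes a secreted antagonist of bone morphogenetic proteins that also binds Wnt co-receptors. Probe A_55_P2151388 had an intensity of 680.4 in Il18-/- and 1406 in Il18+/+, and probe A_55_P2158121 had 614.3 in Il18-/- and 1150 in Il18+/+. The differences of -1.08 and -0.94 lay 0.14 apart. Wfdc2 encodes a small secreted protein with whey acidic protein domains. Probe A_55_P1953341 had an intensity of 357.2 in Il18-/- and 755.5 in Il18+/+, a difference of -1.11, and probe A_55_P2016166 had 117.0 in Il18-/- and 301.6 in Il18+/+, a difference of -1.40. The mean over these Wfdc2 probes was -1.25 or 2.39-fold. 1500015O10Rik encodes the precursor of augurin, a secreted peptide. It had an intensity of 2862 in Il18-/- and 5837 in Il18+/+, a difference of -1.06.

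Ordered by difference, Igf2 and F5 came lowest, then Wfdc2 and Folr1, and the other 6 followed between -1.07 and -0.96. These 6 spanned 0.11, less than the error of 0.20 that Feature Extraction gives for the difference of each, so their order is not resolved. In them the Il18-/- pool read between 47.7% and 51.5% of the Il18+/+ pool. Over the 10 genes the span was 0.60, and it was 0.15 with normexp background correction and 0.21 with none, where Igf2 and F5 no longer stood apart. With none, Wfdc2 was lowest at -1.19, then F5 at -1.17 and Igf2 at -1.16. Both settings make the folds of dim probes smaller by construction, normexp through its offset of 50 and the other by leaving background in the signal. How much of the narrower span comes from that was not tested. The 18 nearest spots around each of the 15 probes had median differences between -0.16 and 0.15. Of the 15737 measured genes, the 10 lay between the 9th and the 78th lowest.

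**Figure D2:**
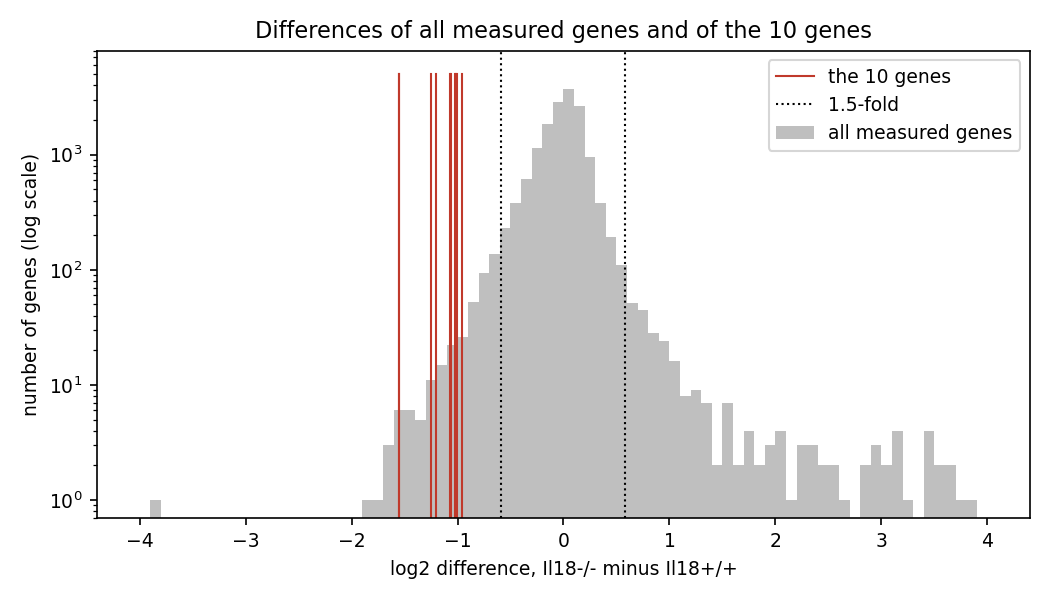
Number of measured genes (log scale) by log2 difference, Il18-/- minus Il18+/+, in steps of 0.1 (grey), with the 10 genes as red lines and 1.5-fold as dotted lines. The red lines lie between -1.55 and -0.96, in the lower tail of the 15737 genes.

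The 10 genes lie on 7 chromosomes in GRCm38.p6, with 3 on chromosome 1 and 2 on chromosome 7. Promoter windows of 300 bases, from 250 before to 50 after a transcript start, were taken from RefSeq (GRCm38.p6) for 6 of the 10, in 11 windows. Of these, 3 are shown, since the genes read lower together, namely a window rich in CG dinucleotides, a window poor in them and the window that held a searched motif. In the Kl and F5 windows the capitals mark CG dinucleotides, and in the Igf2 window they mark the motif TAATCC, the core that the choroid plexus transcription factor OTX2 prefers, read on the opposite strand.
Kl, chr5:150952357-150952656, + strand: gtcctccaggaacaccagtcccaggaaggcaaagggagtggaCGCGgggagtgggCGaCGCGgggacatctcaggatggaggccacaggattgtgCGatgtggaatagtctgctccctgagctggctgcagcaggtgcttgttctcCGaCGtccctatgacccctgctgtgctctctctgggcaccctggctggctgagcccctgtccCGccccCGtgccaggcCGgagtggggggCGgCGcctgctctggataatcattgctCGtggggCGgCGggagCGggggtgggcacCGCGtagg
F5, chr1:164151585-164151884, + strand: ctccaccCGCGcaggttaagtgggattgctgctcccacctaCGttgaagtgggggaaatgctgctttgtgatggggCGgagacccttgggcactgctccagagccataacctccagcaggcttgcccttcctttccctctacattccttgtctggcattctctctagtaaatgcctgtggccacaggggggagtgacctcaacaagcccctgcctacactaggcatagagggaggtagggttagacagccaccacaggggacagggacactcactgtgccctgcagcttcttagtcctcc
Igf2, chr7:142658755-142659054, - strand: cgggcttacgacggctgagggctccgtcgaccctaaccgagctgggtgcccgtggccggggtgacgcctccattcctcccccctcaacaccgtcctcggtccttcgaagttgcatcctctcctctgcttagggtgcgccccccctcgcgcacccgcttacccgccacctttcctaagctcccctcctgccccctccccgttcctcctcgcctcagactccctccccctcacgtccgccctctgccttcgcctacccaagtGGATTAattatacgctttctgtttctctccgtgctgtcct
The Kl window held 19 CG dinucleotides and 67.3% G and C, while the F5 window held 4 and 57.7%. Over all 11 windows the number of CG dinucleotides ran from 2 to 24, beside a median of 7 over 32851 promoter windows, and the 4 Igf2 windows alone held 2, 14, 24 and 7. The 11 windows come from 6 genes, and those of Wfdc2 overlap almost wholly, so they are not 11 separate promoters. TAATCC, searched on both strands, was in 1 of the 11 windows, where it began 11 bases after the start, and in 7.06% of all windows. Neither the forkhead motif GTAAACA nor the TATA box TATAAA was in any of the 11, while 3.65% and 13.6% of all windows held them. A match describes letters and is not a binding site, and no match says only that these letters are not in these windows.

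All 10 markers of the choroid plexus epithelium, which include Ttr, Folr1 and Kl, were well above background on both arrays. All 10 were at least 1.5-fold lower in Il18-/-, which restates what the genes were chosen for. The 7 that are not among the 10 genes had a median difference of -1.18, and these 7 are also among the 32 genes given next. A list of 32 other choroid plexus genes, all of them measured, was also chosen with earlier results of these data known. Of the 32, 24 were lower by 1.5-fold or more, beside 2.57% of all genes, and 14 by 2-fold or more, beside 0.451%. None was at least 1.5-fold higher, beside 1.68%, and the median was -0.93. As for the 10 genes, nothing is read from those counts. The tight junction gene Cldn2 differed by -1.65, the water channel gene Aqp1 by -1.54, the collagen gene Col8a1 by -1.45 and the potassium channel gene Kcnj13 by -1.40. Cldn2 and Col8a1 were each read by 1 dim probe, so the sizes of their differences are uncertain. Their levels were -3.36 and -4.08 in Il18-/- and -1.71 and -2.63 in Il18+/+. The other 32 ranged up to 0.03, while the highest of the 10 genes stood at -0.96. Those nearest 0 were picked out after their values were seen, and they were Slc29a4 at 0.03, Atp2b3 at -0.08, Slc12a2 at -0.18 and Car12 at -0.24. Slc12a2 and Atp2b3 are also transcribed by other brain cells, and this was not examined for Slc29a4 and Car12. The part of other cells in these values was not tested. The rest short of 1.5-fold were Slc4a2 at -0.30, Cab39l at -0.41, Slc5a5 at -0.43 and Msx1 at -0.52. Whether the 10 genes differ from the other choroid plexus genes was not tested.

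Several of the 10 genes are also transcribed outside the choroid plexus, so markers of some of those cells were read on the same arrays. Meningeal fibroblasts make Igf2 and Igfbp2. Of 16 leptomeningeal markers, all measured, 1 was at least 1.5-fold lower, and the median was 0.01. That marker was Mgp, at -0.81, and the next were Dcn at -0.37 and Col1a1 at -0.33. The summed linear level, in multiples of the 75th percentile intensity of the array, was 21.3 in Il18-/- and 24.7 in Il18+/+. Ependymal markers, of the cells that line the ventricles, had a median of 0.05 over 11 measured of 12, and none was at least 1.5-fold lower. Tmem212 differed by 0.82 and Rarres2 by 0.61, while Spef2 differed by -0.44 and Ccdc153 by -0.37. Endothelial and mural markers had a median of -0.07 over 11, with Acta2 at -0.40 and Rgs5 at -0.28.

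Hepatocytes also make Ttr, F5 and Igfbp2, and most of their measured markers went the other way. Of 12 hepatocyte markers 10 were measured, and 9 of these were at least 1.5-fold higher in Il18-/-, with a median of 2.92. Their summed linear level was 11.4 in Il18-/- and 2.999 in Il18+/+. The largest differences were those of Alb at 3.64, Mup20 at 3.62, Ahsg at 3.12 and Fgb at 2.99. Tat and Apoa2 were named after their values were seen. Tat was the 1 measured marker that was lower, at -0.15, and the 2 probes of Apoa2 read 0.22 and 1.59. Cps1 was not well above background on either array, and Apoa1 was so in Il18-/- alone, at least 3.20-fold higher. These 9 liver markers were thus higher in the same pool in which Ttr, F5 and Igfbp2 were lower, and the part of liver RNA in those values was not tested. Medial habenula markers were higher in 6 of 6 cases, between 1.09 and 2.80, with Tac2 the highest, Gng8 at 2.20, Slc5a7 at 1.77 and Slc18a3 at 1.57. Markers of hippocampal and other neurons had a median of 0.16 over 12, with Slc17a7 at -0.43, Lct at 0.41, Tdo2 at 0.37 and Wfs1 at 0.30. Blood cell markers had a median of 0.14 over 6, with S100a9 at 1.33, S100a8 at 0.96, Hba-a1 at 0.18 and Camp at -0.15.

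**Figure D3:**
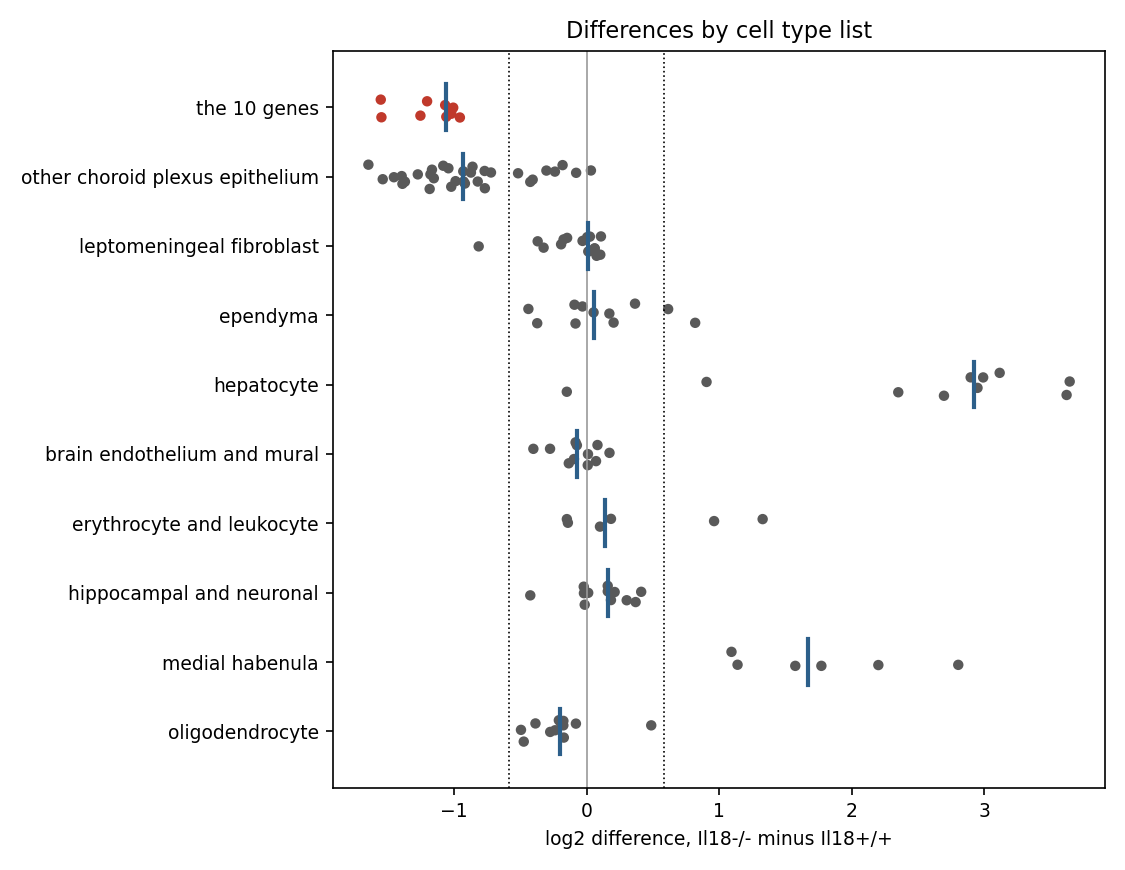
Log2 difference, Il18-/- minus Il18+/+, of each measured gene (points) in the 10 genes (red), the other choroid plexus genes and the marker lists of other cell types, with the median of each list as a blue bar and 1.5-fold as dotted lines. The 10 genes and most other choroid plexus genes lie left of the lower dotted line, and 9 of the 10 measured hepatocyte markers lie right of the upper one.

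Other genes of each pathway were then read, from lists set up by pathway with earlier results of these data known. In the insulin-like growth factor system, 17 genes besides Igf2 and Igfbp2 were measured of 18, and none reached 1.5-fold in either direction, with a median of -0.10. The receptor genes Igf1r, Igf2r and Insr differed by -0.09, -0.02 and -0.31. Igfbpl1, a binding protein gene of newborn neurons, differed by 0.50, Igfbp7 by -0.43, the receptor substrate gene Irs2 by -0.41 and Ins2 by -0.40. The Igfbp7 probe was dim, at levels of -4.36 in Il18-/- and -3.93 in Il18+/+. With spike-in scaling 5 of the 17 were at least 1.5-fold lower.

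Among genes of thyroid hormone and retinol carriage, 14 besides Ttr were measured of 16, and none was at least 1.5-fold lower, with a median of -0.06. With spike-in scaling 2 of the 14 were. The thyroid hormone transporter gene Slco1c1 differed by -0.38. Stra6, the cell surface receptor for retinol-binding protein, differed by -0.47, and the thyroid hormone receptor gene Thrb by -0.24. Alb, a liver gene whose protein also carries thyroid hormone, differed by 3.64. In lysophosphatidic acid signalling, 14 genes besides Enpp2 were measured of 17, and none reached 1.5-fold, with a median of 0.00. With spike-in scaling 3 of these 14 were at least 1.5-fold lower. The receptor gene Lpar4 differed by 0.41 and Lpar1 by -0.32, the phosphatase gene Plpp2, whose product degrades the lipid, by -0.38 and the phospholipase gene Pla1a by -0.34.

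In the klotho and fibroblast growth factor list, 9 genes besides Kl were measured of 16, with a median of -0.21. Of the 9, 1 was at least 1.5-fold lower, and 4 were with spike-in scaling. Fgfr3 differed by -0.86, but its 2 probes read -1.52 and -0.20, and Fgf2 differed by 0.86 on a probe with at least 2 of its nearest spots 2-fold different the same way. The gene for the receptor that klotho joins, Fgfr1, differed by -0.21, Cyp27b1, which makes active vitamin D, by -0.48 and Fgf1 by -0.38. The Cyp27b1 probe was dim, at levels of -4.76 in Il18-/- and -4.28 in Il18+/+. Among antagonists and receptors of bone morphogenetic proteins and Wnts, 18 genes besides Sostdc1 were measured of 22, with a median of -0.25. The secreted Wnt antagonist genes Sfrp1 and Sfrp5 both differed by -0.62 and Sfrp2 by 0.67, and Sfrp1 and Sfrp2 were read by probes with at least 2 of their nearest spots 2-fold different the same way. The count of 2 genes lower by 1.5-fold was 0 when arrays were centred on their medians, 1 without such spots and 8 with spike-in scaling. The Wnt co-receptor genes Lrp6 and Lrp4, whose proteins bind the Sostdc1 product, differed by -0.51 and -0.13.

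Among folate genes 19 besides Folr1 were measured of 19, with a median of -0.02. Folr2, a folate receptor of macrophages, differed by -0.95, or 1.93-fold, the 1 gene besides Folr1 at least 1.5-fold lower. The folate transporter genes Slc46a1 and Slc19a1 differed by -0.02 and -0.11. Ftcd, a liver enzyme gene, differed by 1.12, Mtrr by 0.41 and Mthfd1 by 0.22. The Ftcd probe was dim, at levels of -4.14 in Il18-/- and -5.26 in Il18+/+, so the size of its difference is uncertain. In the coagulation list 17 genes besides F5 were measured of 23, with a median of 0.04, and none of these 17 was at least 1.5-fold lower. With spike-in scaling 1 of them was. Serpinc1, which encodes antithrombin, differed by 2.49, Proc, which encodes protein C, by 0.68, F12 by 0.45 and F9 by -0.37. F8, named after its values were seen, was well above background in Il18+/+ alone. It was dim, at levels of -5.32 in Il18-/- and -4.68 in Il18+/+, and the 1.56-fold between them is no lower bound. F2 was well above background in Il18-/- alone, at least 6.27-fold higher.

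Of 17 further whey acidic protein domain genes 6 were measured, with a median of -0.17. Wfikkn1 differed by -1.23 and was read by a probe with at least 2 of its nearest spots 2-fold different the same way, Wfdc18 differed by 0.60, Wfikkn2 by -0.29 and Wfdc3 by -0.20. Slpi, a protease inhibitor of that family, was well above background in Il18+/+ alone. It was dim, at levels of -5.36 in Il18-/- and -4.90 in Il18+/+, and the 1.37-fold between them is no lower bound. Of other members named after their values were seen, Wfdc21 and Wfdc5 were above background in Il18-/- alone, at least 5.11-fold and 1.63-fold higher. Wfdc10 was also above background in Il18-/- alone, and its 2.87-fold is no lower bound. Wfdc12 was above background in Il18+/+ alone, where it was at least 1.28-fold higher. Of 18 genes for secreted proteins of many brain cells 17 were measured, none reached 1.5-fold in either direction and the median was 0.01. With spike-in scaling 1 of them was at least 1.5-fold lower. The transferrin gene Trf differed by -0.39, the matrix gene Sparc by -0.28, the granin gene Chgb by 0.22 and Vgf by -0.14.

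**Figure D4:**
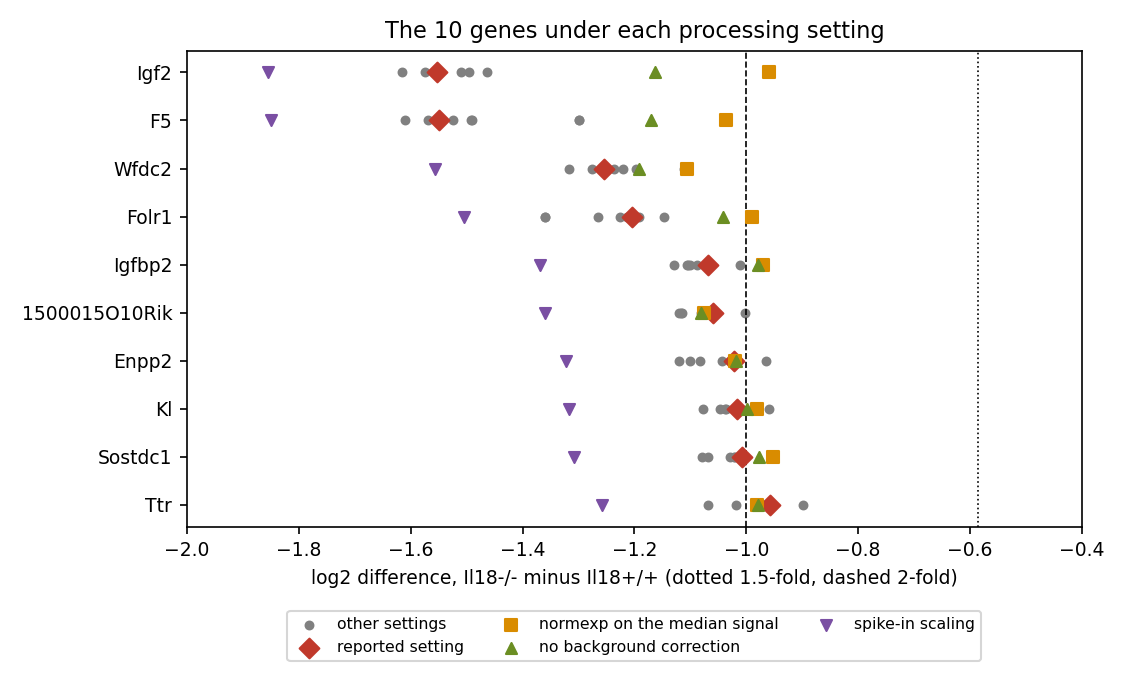
Log2 difference, Il18-/- minus Il18+/+, of the 10 genes in the reported setting (diamonds) and under the alternatives (other symbols), with 1.5-fold dotted and 2-fold dashed. All symbols lie left of the dotted line, and the spread among genes is 0.15 with normexp background correction against 0.60 in the reported setting. The normexp offset of 50 makes the folds of dim probes smaller by construction.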

How the data were processed

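Total RNA pooled from 7 mice per genotype was labelled with Cy3 from 0.1 ug per the labels' protocols. Per the file headers, the authors made the deposited intensity values with Feature Extraction 10.10.1.1 of Agilent, which subtracted background and detrended within each array without scaling between arrays. The design's build is mm9. The authors' deposited table of values is that intensity times a constant, 1.92 (Il18-/-) and 2.05 (Il18+/+), with medians of 139.5 and 151.5. It is linear and not centred, what the constants stand for is unknown, and it served as an alternative.

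Control spots and outlier-flagged spots were left out, log2 intensity was set relative to the 75th percentile, spots were averaged per probe, and a gene was the mean over its probes well above background on both arrays. Probes were named by accession through RefSeq genes of GRCm38.p6, which named 27235 and left 28446 unnamed. The members and lists were chosen with earlier results of these data known. The oligodendrocyte list was added last, after values were seen. Named genes were Il18, the 10 genes, up to 4 others with the largest difference per list, and receptors or transporters of the members' pathways, of which 1 is not reported here. No test was made. A probe was clustered when at least 2 of its 18 nearest spots differed 2-fold the same way. Against a gene above background on 1 array only, the fold used the higher of the dim probe's signal and the lowest signal well above background. Where that was the dim probe's own signal, as for F8, Slpi and Wfdc10, the fold is no lower bound. The spread of repeated spots came from 304 probes with at least 5 spots. The calculations were tested on simulated data. Tools were R 4.3.3, limma 3.58.1, Python 3.11.15, pandas 2.3.3, numpy 2.4.6, matplotlib 3.10.9 and scipy 1.17.1. Alternatives covered scaling, background correction, filters, probe rules, the deposited value table and clustered spots.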

Additional observations from a re-analysis of the deposited data

How the results depend on the processing

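Under 13 alternatives the 10 genes gave 128 values, since Igf2 has none with the stricter filter on dim probes or without clustered spots, and all 128 were lower in Il18-/- by at least 1.5-fold. These are not 128 separate checks. For a gene with 1 probe, the filters and probe rules repeat the reported value wherever they keep the gene. With 2 probes the median equals the mean. Median centring, the other 75th percentile, spike-in scaling and the deposited table each shift all genes by 1 constant. The median difference lay between -1.36, with spike-in scaling, and -0.99, with normexp on the median signal, and between -1.07 and -1.06 when each gene was left out in turn. With normexp 4 of the 10 were at least 2-fold lower. Counts over all genes, at 1.5-fold lower, 2-fold lower, 1.5-fold higher and 2-fold higher, were 405, 71, 264 and 101 in the reported setting. They were 1727, 244, 128 and 67 with spike-in scaling, and 107, 22, 113 and 49 with normexp. They were 147, 34, 132 and 61 with no background correction, 1357, 500, 815 and 395 with no filter on dim probes, and 157, 36, 99 and 30 with the stricter filter. The stricter filter tests fewer genes and no filter tests more. The normexp offset and uncorrected background make the folds of dim probes smaller by construction, and other causes were not tested. No value past 1.5-fold changed sign. Signal over background limits Igf2, F5 probe A_51_P407323 and Folr1 probe A_52_P584335 the most. No paired analysis was possible because each genotype had 1 array.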
